A study of Mus musculus with 61 samples.

Results

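Forebrain and midbrain were compared at the start of brain neurogenesis, in 7 of the 61 libraries of a mouse RNA-seq series. The libraries were chosen by tissue and stage alone: 3 forebrain libraries (1 at E10.5, embryonic day 10.5, and 2 at E11.5) and 4 midbrain libraries (2 at E10.5 and 2 at E11.5). All were labelled as mouse fetal forebrain or midbrain. The labels name no treatment, engineered allele, strain, sex or number of embryos. The series itself followed forebrain, midbrain, hindbrain and liver to birth beside a study of DNA methylation. Each region is a mixture of cells, so a lower value can mean fewer cells of a type or less RNA per cell, and these cannot be told apart.

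The forebrain gives rise to the telencephalon (cortex and basal ganglia), the hypothalamus, the thalamus and the eyes, and the midbrain to the tectum, the tegmentum and its dopamine neurons. At these stages both are still walls of dividing neuroepithelial cells, and position along the tube is written in transcription factors. Emx2, Dlx2 and Six3 mark forebrain territory. Otx2 covers both regions, and the isthmus, a signalling centre at the border of midbrain and hindbrain, releases Fgf8 and Wnt1 and keeps the engrailed genes En1 and En2 active in the midbrain. The ventral midline, or floor plate, secretes Shh and later gives rise to dopamine neurons in the midbrain.

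Expression was measured in TPM, a unit of transcript abundance that corrects for length and library size. No read counts were used, and the sequencing depth behind the values is unknown. Of the genes in the table, 13780 to 14357 reached 1 TPM in the forebrain libraries and 13985 to 14583 in the midbrain libraries. Differences are forebrain minus midbrain on the log2(TPM + 1) scale, where the added 1 shrinks differences of weakly expressed genes, averaged over E10.5 and E11.5 with equal weight and given with their standard error. A gene was called when limma gave a Benjamini-Hochberg adjusted p below 0.05 and the difference was at least 1 in size. The spread behind the p-values was estimated over all 61 libraries, liver and later stages included, and not from the 7 libraries alone. The labels do not say that replicates came from separate litters. The p-values thus reflect how much replicate libraries varied over the series, and part of that variation may be technical. They do not measure the precision of the 7 libraries by themselves.

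Several features of the libraries touch the results below. Forebrain at E10.5 rests on 1 library, and its spread was taken from the other groups. Where a result is given without that library, no difference at E10.5 can be formed. The value is then the difference at E11.5 alone, and the E10.5 midbrain libraries leave it too. An effect of that library and a change between stages cannot be told apart. The summed level of the 24 young-neuron genes followed below was 671 TPM in forebrain at E10.5 and 2216 and 2301 TPM at E11.5, against 1873 and 2322 TPM in midbrain at E10.5 and 3548 and 3692 TPM at E11.5. Forebrain replicate 1 at E11.5 stood apart in the liver genes Alb (albumin) at 8.82 TPM and Afp at 4.10 TPM, which were at no more than 0.11 and 0.25 TPM in the other 6 libraries. Long transcripts also had lower values in that library than in its partner: over genes at 5 TPM or more, the median difference was -0.31 where the longest annotated transcript exceeds 3929 nt and 0.09 where it has up to 2139 nt. In the 4 other replicate pairs of the 3 brain regions at these stages, the same medians lay between -0.09 and 0.04. The part of these features in the results was not tested. The female-specific transcript Xist and the Y-linked gene Eif2s3y were detected in all 7 libraries, at 95.9 to 223 TPM in forebrain and 113 to 280.1 TPM in midbrain for Xist and 25.4 to 42.0 TPM in forebrain and 22.0 to 47.0 TPM in midbrain for Eif2s3y.

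Of 18655 genes tested, 152 were higher in forebrain, a share of 0.815%, and 372 were lower in forebrain, a share of 1.99%. Together these 524 genes were 2.81% of the genes tested, and the median difference over all genes was -0.03. The longest annotated transcript had a median of 3451 nt for the lower genes with a known length. It was 2998 nt for the higher genes and 2993 nt for all. The part of transcript length in the calls was not tested. The 3 forebrain and 4 midbrain libraries did not overlap for 129 of the 152 higher genes and 285 of the 372 lower genes, where 982 of all tested genes, or 5.26%, had all forebrain libraries above midbrain and 1349, or 7.23%, had them all below. The calls came from the same libraries and required a difference of at least 1, so much of this separation was built in. Differences of at least 2 were found for 33 of the higher and 77 of the lower genes, and differences of at least 3 for 8 and 19 genes. At E10.5 alone 184 genes were higher (0.986% of those tested) and 476 lower (2.55%) in forebrain, 3.54% in all. At E11.5 alone, where each region has 2 libraries, 162 were higher (0.868%) and 342 lower (1.83%), 2.7% in all. Of the genes called over both stages, 93 of the 152 higher and 243 of the 372 lower genes were also called the same way at each stage alone.

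**Figure D1:**
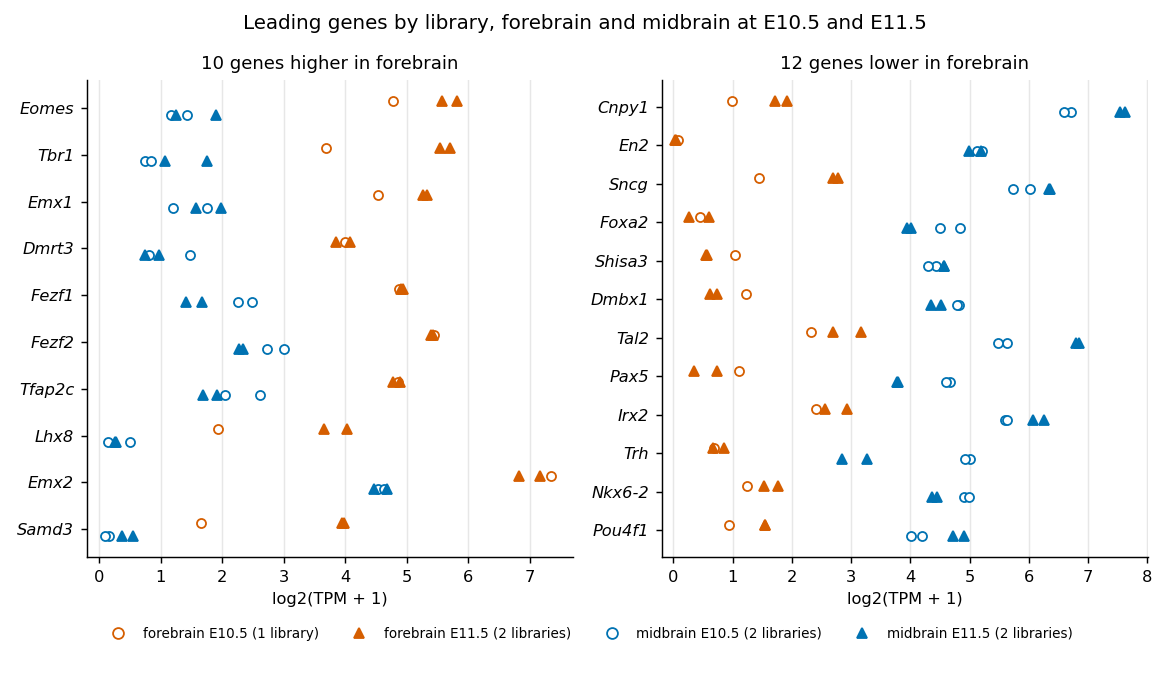
Level of 10 leading genes higher and 12 leading genes lower in forebrain, 1 point per library, on the log2(TPM + 1) scale. Forebrain libraries are orange and midbrain libraries blue, with open circles for E10.5 and filled triangles for E11.5. In every row the colours do not overlap, which was a condition for choosing the genes. En2 lies at or near 0 in all 3 forebrain libraries.

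On the forebrain side, Eomes, which encodes a factor of intermediate progenitors and the first cortical neurons, was at 26.2 TPM at E10.5 and 46.5 and 55.4 TPM at E11.5 in forebrain, against 1.24 and 1.70 TPM at E10.5 and 1.39 and 2.72 TPM at E11.5 in midbrain (3.79 ± 0.24, adjusted p = 6.35e-15). Tbr1, a factor of early cortical neurons, was at 11.9 TPM at E10.5 and 45.4 and 51.1 TPM at E11.5 in forebrain, against 0.68 and 0.79 TPM at E10.5 and 1.10 and 2.37 TPM at E11.5 in midbrain (3.55 ± 0.37, adjusted p = 1.23e-09). Both genes were higher at E11.5 than at E10.5 in every forebrain library, while the midbrain libraries stayed under 3 TPM at both stages. Emx1, a marker of the dorsal telencephalon, was at 22.2 TPM at E10.5 and 39.1 and 37.3 TPM at E11.5 in forebrain, against 1.30 and 2.39 TPM at E10.5 and 1.98 and 2.93 TPM at E11.5 in midbrain (3.29 ± 0.22, adjusted p = 3.11e-14). For each of the 10 higher and 12 lower leading genes plotted, an exact two-sided permutation test of the 3 against the 4 libraries gave p = 0.0286, the smallest its 35 arrangements allow. The leading genes had been chosen for no overlap between the regions, which all but fixes this p, so it adds no evidence of its own.

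The promoter windows of the leading genes are shown because they hold the letters at which DNA methylation, the subject of the series, is written. They run from 250 bases before to 50 after the start site in RefSeq (GRCm38.p6), 5′ to 3′ on the gene's own strand, with each CG dinucleotide in capitals. For each direction they are those of the 2 genes of largest difference among the leading genes plotted for which the table has a single window; En2 had none. Eomes lies on the plus strand (chr9:118477939-118478238), Tbr1 on the plus strand (chr2:61804203-61804502), Sncg on the minus strand (chr14:34374620-34374919) and Shisa3 on the plus strand (chr5:67607633-67607932). The first pair was higher and the second pair lower in forebrain.
Eomes: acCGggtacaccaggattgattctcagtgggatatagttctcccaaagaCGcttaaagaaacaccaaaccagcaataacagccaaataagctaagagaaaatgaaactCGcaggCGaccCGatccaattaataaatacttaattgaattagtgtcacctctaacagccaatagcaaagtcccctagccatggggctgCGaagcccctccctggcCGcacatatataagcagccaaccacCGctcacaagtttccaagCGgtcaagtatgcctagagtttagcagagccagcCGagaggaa
Tbr1: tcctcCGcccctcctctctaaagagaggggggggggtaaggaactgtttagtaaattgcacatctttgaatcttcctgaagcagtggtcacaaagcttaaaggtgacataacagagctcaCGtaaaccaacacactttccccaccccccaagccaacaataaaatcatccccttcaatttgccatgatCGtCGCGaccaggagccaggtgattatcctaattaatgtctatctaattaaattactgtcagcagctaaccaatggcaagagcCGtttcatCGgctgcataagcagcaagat
Sncg: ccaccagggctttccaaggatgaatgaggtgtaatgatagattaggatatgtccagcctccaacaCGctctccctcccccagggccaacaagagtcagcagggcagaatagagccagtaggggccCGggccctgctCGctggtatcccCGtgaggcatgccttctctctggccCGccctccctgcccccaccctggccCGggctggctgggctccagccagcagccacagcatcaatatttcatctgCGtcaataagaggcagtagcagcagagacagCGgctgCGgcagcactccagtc
Shisa3: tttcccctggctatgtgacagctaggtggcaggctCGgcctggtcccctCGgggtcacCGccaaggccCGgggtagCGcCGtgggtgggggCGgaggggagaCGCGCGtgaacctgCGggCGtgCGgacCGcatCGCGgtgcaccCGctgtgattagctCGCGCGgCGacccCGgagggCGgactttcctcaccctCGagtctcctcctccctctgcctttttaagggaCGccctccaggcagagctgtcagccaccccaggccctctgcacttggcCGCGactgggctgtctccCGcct

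The windows held 10 CG dinucleotides for Eomes, 7 for Tbr1, 9 for Sncg and 28 for Shisa3, so the pair higher in forebrain did not stand apart from the pair lower in forebrain. Over all genes with a window in the table, the median was 14 CG dinucleotides for 107 of the 152 genes higher in forebrain, 15 for 258 of the 372 lower genes and 19 for 12873 of the 18655 tested genes. The homeodomain core TAATTA, searched on both strands, was in the windows of 6 of the 107 higher genes (5.61%), 10 of the 258 lower genes (3.88%) and 2.7% of all. The related motif TAATCC, the core bound by Otx proteins, was in 6 of 107 (5.61%), 11 of 258 (4.26%) and 5.62% of all. Among the 4 windows printed, TAATTA occurred in that of Tbr1 and TAATCC in none. These counts describe letters in the windows and not binding or methylation.

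The telencephalon and pallium list, 24 patterning genes of the forebrain roof, held 17 genes higher in forebrain and none lower, with a median difference of 1.92. Beside Eomes, Tbr1 and Emx1, they included Emx2, Lhx2, Fezf1, Fezf2, Neurod6, Dmrta1, Dmrta2, Dmrt3, Pax6, Tfap2c, Wnt8b and Id4. Emx2, which sets the size of cortical areas, was at 160.4 TPM at E10.5 and 112 and 143 TPM at E11.5 in forebrain, against 22.1 and 23.8 TPM at E10.5 and 21.1 and 24.7 TPM at E11.5 in midbrain (2.59 ± 0.29, adjusted p = 7.19e-09). It was well detected in midbrain too, yet every forebrain library lay far above every midbrain library. The zinc-finger gene Fezf2, which specifies corticospinal neurons later, ranged over 41.2 to 42.3 TPM in forebrain and 3.82 to 7.04 TPM in midbrain (2.84 ± 0.31), and its relative Fezf1 over 28.4 to 29.7 TPM in forebrain and 1.66 to 4.60 TPM in midbrain (2.94 ± 0.19). Dmrt3, a medial pallium factor, ranged over 13.4 to 15.8 TPM in forebrain and 0.68 to 1.79 TPM in midbrain (2.97 ± 0.13). Tfap2c, a factor of cortical progenitors, ranged over 26.3 to 28.7 TPM in forebrain and 2.23 to 5.15 TPM in midbrain (2.77 ± 0.15). Lhx2, a cortical selector gene, was higher by 2.09 ± 0.14. Pax6, which is expressed along most of the neural tube and is needed for cortex and eye, differed by less, with 197 TPM (E10.5) and 153 and 162 TPM (E11.5) in forebrain, against 98.0 and 99.7 TPM (E10.5) and 69.6 and 67.6 TPM (E11.5) in midbrain (1.09 ± 0.14, adjusted p = 7.63e-08). The list was not uniform: Nr2f1, a gene of caudal cortex, had 135 TPM (E10.5) and 207 and 212 TPM (E11.5) in forebrain, against 146 and 147 TPM (E10.5) and 159 and 171 TPM (E11.5) in midbrain, and Lef1, a mediator of WNT signals, 32.7 TPM (E10.5) and 19.4 and 24.9 TPM (E11.5) in forebrain, against 37.5 and 36.1 TPM (E10.5) and 24.9 and 27.1 TPM (E11.5) in midbrain. Their libraries overlapped between regions and neither gene was called.

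The subpallium and ventral forebrain list of 20 genes, which pattern the basal ganglia and hypothalamus, divided into 9 genes higher in forebrain (Nkx2-1, Gsx2, Dlx1, Dlx2, Dlx5, Dlx6, Lhx6, Lhx8 and Six3) and 3 lower (Gsx1, Ebf1 and Sim1), with a median of 0.94. Lhx8, a factor of cholinergic neuron precursors, stood at 2.80 TPM at E10.5 and 15.3 and 11.6 TPM at E11.5 in forebrain, against 0.11 and 0.41 TPM at E10.5 and 0.21 and 0.20 TPM at E11.5 in midbrain (2.59 ± 0.24, adjusted p = 1.07e-10). Its values at E11.5 were several times that at E10.5 in forebrain, while midbrain stayed below 0.5 TPM. Gsx2, which specifies the lateral ganglionic eminence, ranged over 6.23 to 14.8 TPM in forebrain and 1.05 to 2.13 TPM in midbrain (2.12 ± 0.17). Dlx2, which drives GABAergic interneuron fate, stood at 16.2 TPM at E10.5 and 35 and 38.4 TPM at E11.5 in forebrain, against 6.85 and 6.41 TPM at E10.5 and 4.34 and 3.57 TPM at E11.5 in midbrain (2.05 ± 0.28, adjusted p = 5.76e-07); its difference was 1.17 ± 0.44 at E10.5, not called, and 2.93 ± 0.36 at E11.5, called. Six3, a gene of the anterior forebrain and eye field, had 30.5 TPM (E10.5) and 15.4 and 16.6 TPM (E11.5) in forebrain, against 7.64 and 6.45 TPM (E10.5) and 7.87 and 8.42 TPM (E11.5) in midbrain (1.43 ± 0.29, adjusted p = 0.000216), and was not called without the E10.5 forebrain library, at a difference of 0.89. On the other side, Ebf1, a factor of young neurons in striatum and midbrain, ranged over 4.80 to 7.42 TPM in forebrain and 20.8 to 27.7 TPM in midbrain (-2.01 ± 0.11). Zic1, a factor of the dorsal tube, had 141 to 189 TPM in forebrain and 127 to 246 TPM in midbrain and was not called.

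The diencephalon and thalamus list of 16 genes had 2 members higher in forebrain (Six6 and Fezf2) and 7 lower (Tcf7l2, Irx1, Irx3, Irx5, Sim2, Shox2 and Dbx1), with a median of -0.96, so most of its called genes were higher in midbrain although the thalamus belongs to the forebrain. Dbx1, a factor of a progenitor domain that runs through the tube, was at 9.62 TPM at E10.5 and 17.6 and 18.4 TPM at E11.5 in forebrain, against 129 and 97.6 TPM at E10.5 and 120.2 and 124 TPM at E11.5 in midbrain (-3.05 ± 0.17, adjusted p = 1.21e-16). The Iroquois genes, which mark the tube behind the anterior forebrain, moved together: Irx1 ranged over 2.55 to 4.02 TPM in forebrain and 28.4 to 42.3 TPM in midbrain (-2.98 ± 0.16) and Irx5 over 5.13 to 7.88 TPM in forebrain and 24.7 to 36.2 TPM in midbrain (-2.09 ± 0.11). Irx2 ranged over 4.32 to 6.66 TPM in forebrain and 47.2 to 75.9 TPM in midbrain (-3.31 ± 0.16). Hindbrain had 28.6 to 48.5 TPM of Irx1 in its 4 libraries of the same stages, a level near that of midbrain. Barhl2 and Lhx9, genes of thalamus, were not called, with differences of -0.67 ± 0.12 and -0.84 ± 0.23.

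Of the 16 members of the eye field and retina list, 13 passed the filter, and 5 were higher in forebrain (Vax1, Tbx2, Dct, Six6 and Rlbp1) and none lower. Vax1, a factor of the optic stalk and ventral forebrain, was even over the stages, at 5.48 TPM (E10.5) and 5.17 and 5.40 TPM (E11.5) in forebrain, against 0.17 and 0.26 TPM (E10.5) and 0.22 and 0.26 TPM (E11.5) in midbrain (2.38 ± 0.14, adjusted p = 4.69e-16). Tbx2, a factor of the dorsal optic cup, was not: it stood at 19.5 TPM at E10.5 and 2.79 and 3.41 TPM at E11.5 in forebrain, against 1.48 and 1.69 TPM at E10.5 and 1.17 and 1.37 TPM at E11.5 in midbrain (1.92 ± 0.09, adjusted p = 3.98e-18). Tbx2 was not called without the E10.5 forebrain library, at 0.85, and neither was Six6, at 0.12. For Tbx2, hindbrain had 8.17 to 15.9 TPM. The summed level of all 16 list genes was 69.1 TPM in forebrain at E10.5 and 22.2 and 22.4 TPM at E11.5, against 11.9 to 14.9 TPM in midbrain at E10.5 and 8.98 to 9.42 TPM at E11.5. In hindbrain the sum was 36.51 to 38.15 TPM at E10.5 and 41.71 to 43.18 TPM at E11.5, so at E11.5 it lay above that of forebrain. Rax, the eye field selector, had 5.34 TPM in forebrain at E10.5 and at most 2.16 TPM in the other 6 libraries, and the pigment gene Pmel had 13.9 TPM and at most 3.13 TPM. The labels do not say whether the eyes were left on the forebrain.

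On the midbrain side the largest difference belonged to Cnpy1, a gene of the FGF pathway expressed around the isthmus (chr5). Cnpy1 stood at 0.98 TPM at E10.5 and 2.78 and 2.28 TPM at E11.5 in forebrain, against 104 and 95.2 TPM at E10.5 and 184 and 197 TPM at E11.5 in midbrain (-5.71 ± 0.26, adjusted p = 1.43e-18). Its neighbour En2, which patterns the tectum and cerebellum, stood at 0.06 TPM at E10.5 and 0.03 and 0.02 TPM at E11.5 in forebrain, against 36.0 and 34.1 TPM at E10.5 and 30.8 and 35.8 TPM at E11.5 in midbrain (-5.07 ± 0.21, adjusted p = 1.02e-19). En2 was at or below 0.06 TPM in every forebrain library. En1, its paralogue, ranged over 0.46 to 1.40 TPM in forebrain and 8.30 to 17.2 TPM in midbrain (-2.87 ± 0.19, adjusted p = 1.28e-14). Pax5, which acts with the engrailed genes at the border, ranged over 0.27 to 1.16 TPM in forebrain and 12.7 to 24.4 TPM in midbrain (-3.39 ± 0.21, adjusted p = 6.03e-15). Hindbrain libraries of these stages had 11.2 to 29.9 TPM of En2 and 37.5 to 93.3 TPM of Cnpy1, with replicate 2 at E10.5 the highest for both.

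The border and isthmus list of 22 genes held 7 lower members (En1, En2, Pax5, Pax8, Wnt1, Cnpy1 and Lmx1b), no higher one, and a median of -0.25. The FGF genes of the same list did not follow. Fgf8, the ligand that gives the isthmus its organizing activity and which the anterior forebrain also makes, had 17.6 TPM (E10.5) and 8.66 and 7.22 TPM (E11.5) in forebrain, against 8.87 and 11.4 TPM (E10.5) and 4.89 and 6.24 TPM (E11.5) in midbrain (0.60 ± 0.19, adjusted p = 0.0216), not called. Dusp6, a feedback inhibitor that FGF signalling induces, had 61.7 TPM (E10.5) and 31.4 and 29.7 TPM (E11.5) in forebrain, against 28.5 and 35 TPM (E10.5) and 19.6 and 20.9 TPM (E11.5) in midbrain (0.76 ± 0.08), and Fgf15 had 41.3 to 62.1 TPM in forebrain and 58.0 to 67.0 TPM in midbrain, both not called. Pax2, the earliest Pax gene of the border, was low in both regions, with 2.81 TPM (E10.5) and 0.23 and 0.26 TPM (E11.5) in forebrain, against 2.15 and 2.12 TPM (E10.5) and 0.71 and 0.85 TPM (E11.5) in midbrain, and was not called.

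The list of midbrain tectum and GABAergic selector genes had the most lower members of any regional list, 13 of 20, with none higher and a median of -1.37. They were Otx2, Pax3, Pax7, Gata2, Gata3, Tal1, Tal2, Sox14, Helt, Barhl1, Pou4f1, Ebf3 and Dmbx1. Dmbx1, a homeobox gene of the midbrain, stood at 1.33 TPM at E10.5 and 0.67 and 0.53 TPM at E11.5 in forebrain, against 27.3 and 26.7 TPM at E10.5 and 19.3 and 21.8 TPM at E11.5 in midbrain (-3.67 ± 0.12, adjusted p = 1.93e-22). Tal2, which specifies GABAergic neurons of the midbrain, stood at 4.03 TPM at E10.5 and 7.98 and 5.51 TPM at E11.5 in forebrain, against 48.4 and 43.6 TPM at E10.5 and 115 and 110.3 TPM at E11.5 in midbrain (-3.56 ± 0.26, adjusted p = 2.16e-13). Hindbrain had 1.87 to 4.64 TPM of Dmbx1 and 1.07 to 4.11 TPM of Tal2, below every midbrain library for both. Helt, which acts with Tal2 in the same lineage, ranged over 0.63 to 2.11 TPM in forebrain and 11.4 to 16 TPM in midbrain (-2.68 ± 0.16), and was at or below 0.25 TPM in all 4 hindbrain libraries. Pou4f1, a factor of red nucleus and tectal neurons, ranged over 0.91 to 1.93 TPM in forebrain and 15.2 to 29.1 TPM in midbrain (-3.22 ± 0.16). Barhl1 ranged over 0.70 to 1.80 TPM in forebrain and 12.3 to 17.6 TPM in midbrain (-2.98 ± 0.23). Pou4f1 had 22.4 to 39.6 TPM in hindbrain, where its 4 libraries ran into and above the midbrain range.

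The Otx pair, both needed for the forebrain and midbrain, split. Otx2 stood at 99.0 TPM at E10.5 and 81.0 and 78.5 TPM at E11.5 in forebrain, against 283 and 271 TPM at E10.5 and 259 and 273 TPM at E11.5 in midbrain (-1.60 ± 0.17, adjusted p = 4.7e-09), with every forebrain library below every midbrain library. Otx1 stood at 55.7 TPM (E10.5) and 39.1 and 45.8 TPM (E11.5) in forebrain, against 62.7 and 58.1 TPM (E10.5) and 35.7 and 41.7 TPM (E11.5) in midbrain, where the regions overlapped and the difference was 0.01 ± 0.19. In hindbrain Otx2 had 15.8 to 45.4 TPM and Otx1 1.94 to 10.4 TPM. The dorsal genes Pax3 and Pax7 were lower in forebrain, Pax3 with 10.8 TPM (E10.5) and 3.33 and 3.27 TPM (E11.5) in forebrain, against 29.8 and 30.6 TPM (E10.5) and 31.4 and 35.4 TPM (E11.5) in midbrain (-2.20 ± 0.12, adjusted p = 2.03e-16) and Pax7 with 7.82 TPM (E10.5) and 1.29 and 1.80 TPM (E11.5) in forebrain, against 9.44 and 9.06 TPM (E10.5) and 9.74 and 11.3 TPM (E11.5) in midbrain (-1.20 ± 0.13, adjusted p = 7.29e-09). For both, the E10.5 forebrain library lay several times above the E11.5 ones. Pax7 was not called in a fit of the 7 libraries alone, at -1.39 (adjusted p = 0.0907), or after quantile normalization, at -0.98. The fit of the 7 libraries had region and stage as additive terms, so a region difference that changes with stage counts as spread in it. Meis2, a tectal gene that the forebrain also uses, had 72.9 to 124 TPM in forebrain and 78.3 to 121 TPM in midbrain and was not called.

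Of 19 floor plate and dopamine neuron genes, 8 were lower in forebrain (Lmx1a, Lmx1b, Foxa1, Foxa2, Shh, Corin, Ferd3l and Ddc), 1 was higher, and the median was -0.47. Foxa2, which specifies the floor plate, was at 0.37 TPM at E10.5 and 0.51 and 0.20 TPM at E11.5 in forebrain, against 27.5 and 21.6 TPM at E10.5 and 14.3 and 15.1 TPM at E11.5 in midbrain (-3.88 ± 0.20, adjusted p = 5.97e-17). Forebrain libraries were all at or below 0.51 TPM. Its relative Foxa1 ranged over 1.43 to 2.33 TPM in forebrain and 13.7 to 20.2 TPM in midbrain (-2.69 ± 0.21). Ferd3l, a factor of midbrain floor plate progenitors, ranged over 0.23 to 0.35 TPM in forebrain and 5.75 to 7.01 TPM in midbrain (-2.50 ± 0.12). Shh itself, which the ventral forebrain makes as well, differed by less, with 6.39 to 9.61 TPM in forebrain and 21.4 to 33.4 TPM in midbrain (-1.49 ± 0.13, adjusted p = 5.65e-11). Of the genes of differentiated dopamine neurons, the enzyme gene Ddc was called, as listed above. Th, the rate-limiting enzyme of dopamine synthesis, had 3.95 to 13.1 TPM in forebrain and 3.88 to 8.46 TPM in midbrain, Pitx3 stayed at or below 0.14 TPM in all 7 libraries, and neither was called. Msx1 and Neurog2, which act in the progenitors, were not called, at 0.39 ± 0.16 and -0.11 ± 0.18.

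A list of 14 genes of oculomotor, red nucleus and other early midbrain neurons had 9 members lower in forebrain (among them Phox2a, Isl2, Nkx6-1, Nkx6-2, Nkx2-2, Pou4f1, Sim1 and Prph), 1 higher (Six3) and a median of -1.39. Nkx6-2, a factor of ventral progenitors, stood at 1.37 TPM at E10.5 and 2.41 and 1.89 TPM at E11.5 in forebrain, against 29.1 and 31 TPM at E10.5 and 20.9 and 19.6 TPM at E11.5 in midbrain (-3.23 ± 0.13, adjusted p = 1.03e-19). Nkx6-1 ranged over 0.60 to 1.54 TPM in forebrain and 7.95 to 15.1 TPM in midbrain (-2.54 ± 0.16). Prph, an intermediate filament of motor neurons, ranged over 0.23 to 0.27 TPM in forebrain and 2.86 to 4.27 TPM in midbrain (-1.88 ± 0.21). Isl1, a factor of motor neurons that is also made in the ventral forebrain, had 5.93 TPM (E10.5) and 20.1 and 23.6 TPM (E11.5) in forebrain, against 11 and 10.8 TPM (E10.5) and 11.8 and 11.8 TPM (E11.5) in midbrain and was not called. Of 20 hindbrain and Hox genes, 2 were lower in forebrain, among them Lhx4, and none was higher. The summed level of that list was 3.40 to 5.18 TPM in forebrain, 8.32 to 13 TPM in midbrain and 227 to 573 TPM in hindbrain, so these genes were low in both regions.

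The other genes among the 12 lowest in forebrain were Sncg, Shisa3, Irx2 and Trh. Sncg, which encodes gamma-synuclein, stood at 1.71 TPM at E10.5 and 5.89 and 5.47 TPM at E11.5 in forebrain, against 63.9 and 52.5 TPM at E10.5 and 81.4 and 79.7 TPM at E11.5 in midbrain (-4.03 ± 0.19, adjusted p = 2.32e-18). Shisa3, of the Shisa family of membrane proteins, stood at 1.06 TPM at E10.5 and 0.48 and 0.46 TPM at E11.5 in forebrain, against 20.7 and 18.8 TPM at E10.5 and 22.8 and 22.6 TPM at E11.5 in midbrain (-3.67 ± 0.22, adjusted p = 2.1e-15). Trh, the precursor of thyrotropin-releasing hormone, stood at 0.60 TPM at E10.5 and 0.81 and 0.59 TPM at E11.5 in forebrain, against 31.2 and 29.5 TPM at E10.5 and 6.18 and 8.59 TPM at E11.5 in midbrain (-3.29 ± 0.29, adjusted p = 2.37e-11). Trh was several times higher at E10.5 than at E11.5 in midbrain, while all 3 forebrain libraries stayed below 1 TPM.

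The called genes were also looked up in hindbrain. No hindbrain library entered the difference. Of the 152 genes higher in forebrain, 91 had all 4 hindbrain libraries of E10.5 and E11.5 below all 3 forebrain libraries, 49 had them above all 4 midbrain libraries, and 22 had them below both regions. Over all tested genes these shares were 5.46%, 8.04% and 1.3%. Of the 372 genes lower in forebrain, 247 had all 4 hindbrain libraries above all 3 forebrain libraries, 79 had them all below the 4 midbrain libraries, and 33 had them above both regions. Over all tested genes these shares were 11.8%, 2.99% and 4.97%. The called genes were chosen for a difference between forebrain and midbrain, which by itself makes such positions more frequent than over all genes. These are descriptions of 4 further libraries, with no test.

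**Figure D2:**
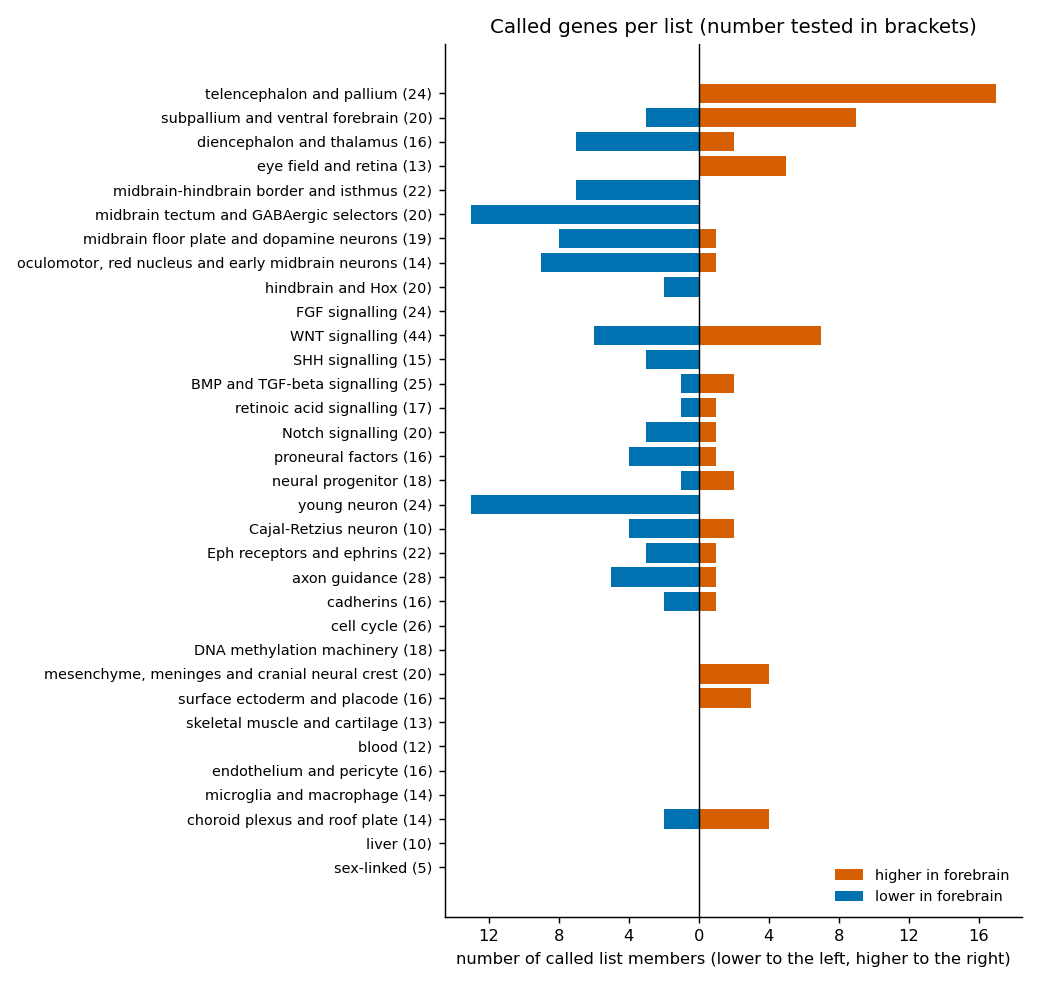
Number of genes called in each of the 33 gene lists, higher in forebrain to the right and lower in forebrain to the left, with the number of list members tested in brackets. The telencephalon list leads on the forebrain side with 17 of 24, and the tectum and young-neuron lists lead on the midbrain side with 13 of 20 and 13 of 24. FGF signalling, cell cycle and DNA methylation are among the lists with no called gene. Over all tested genes 2.81% were called.

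Signalling genes were called in both directions within the WNT list, where 44 of 48 members were tested, 7 were higher in forebrain, 6 were lower and the median was -0.06. WNT proteins bind Frizzled receptors, R-spondins amplify the signal and secreted Frizzled-related proteins dampen it. Among the ligands, Wnt1, which the midbrain roof and isthmus make, stood at 0.72 TPM at E10.5 and 0.32 and 0.29 TPM at E11.5 in forebrain, against 12.4 and 12.4 TPM at E10.5 and 5.67 and 7.01 TPM at E11.5 in midbrain (-2.72 ± 0.13, adjusted p = 3.86e-18), with no forebrain library above 0.72 TPM. The ligands Wnt8b, made at the medial edge of the cortex, and Wnt7b ran the other way, higher by 1.62 ± 0.16 and 1.34 ± 0.12. Wnt5a, a ligand of the planar polarity branch, was lower, at -1.22. Receptors split as well. Fzd10 ranged over 10.6 to 15.1 TPM in forebrain and 47.8 to 65.0 TPM in midbrain (-2.07 ± 0.12, adjusted p = 1.06e-15). Fzd8 ranged over 25.9 to 32.1 TPM in forebrain and 6.30 to 6.86 TPM in midbrain (1.90 ± 0.10, adjusted p = 1.64e-17).

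Of the R-spondins on that list, Rspo1, Rspo2 and Rspo3 were all higher in forebrain. Rspo3 stood at 31.6 TPM at E10.5 and 41.8 and 43.1 TPM at E11.5 in forebrain, against 7.61 and 12.1 TPM at E10.5 and 6.53 and 10.1 TPM at E11.5 in midbrain (1.94 ± 0.16, adjusted p = 5.15e-12). Rspo1 ranged over 50.2 to 60.3 TPM in forebrain and 13.1 to 29.3 TPM in midbrain (1.43 ± 0.15). The inhibitor Sfrp1 was higher by 1.28 ± 0.09, while Dkk2, the receptor Lgr5 and the effector Tcf7l2 were lower, at -1.22, -1.49 and -1.60. Sfrp2 and Fzd2, the list members of highest level that were not called, had differences of -0.17 ± 0.14 and 0.58 ± 0.12.

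**Figure D3:**
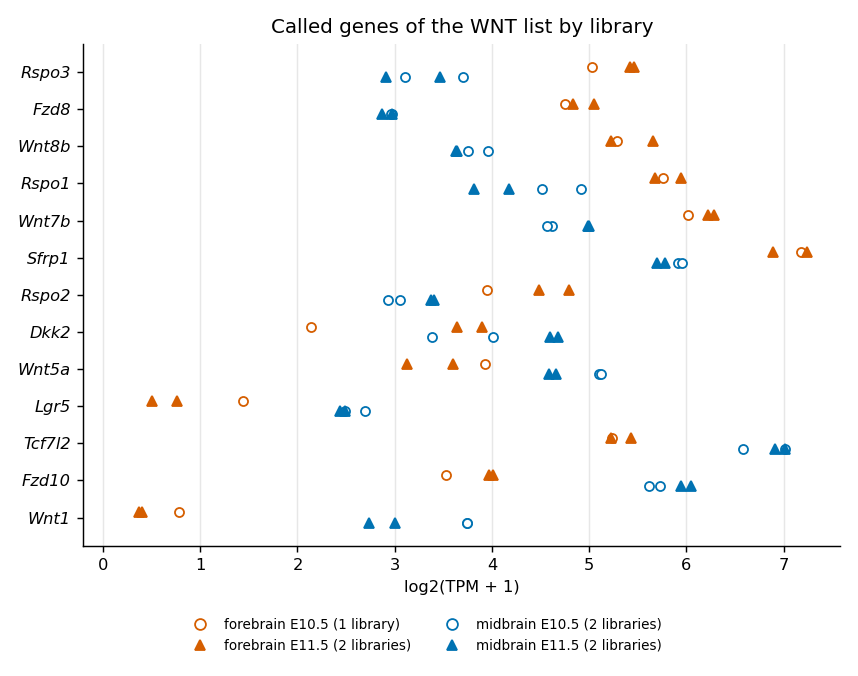
Level of the 13 called genes of the WNT list in each of the 7 libraries, on the log2(TPM + 1) scale, from the gene highest in forebrain (Rspo3) to the gene lowest in forebrain (Wnt1). Forebrain is orange and midbrain blue, with open circles for E10.5 and filled triangles for E11.5; the regions separate in every row except Dkk2, where they overlap.

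The FGF list of 24 ligands, receptors and targets had no called gene in either direction, beside 2.81% of all tested genes, and a median of -0.01. Its receptors of highest level, Fgfr1 and Fgfr2, had 77.2 to 95.1 TPM in forebrain and 56.8 to 72.5 TPM in midbrain and 60.1 to 90.0 TPM in forebrain and 88.0 to 94.2 TPM in midbrain. With all libraries in 1 limma fit, the differences were 0.43 ± 0.09 (adjusted p = 0.000584) and -0.43 ± 0.10 (adjusted p = 0.0022), both below the size required for a call. In the SHH list of 15 genes, Shh, Foxa2 and Nkx2-2 were lower in forebrain and none was higher. Nkx2-2, a target that needs high Shh, had 4.65 to 5.93 TPM in forebrain and 9.30 to 15.1 TPM in midbrain (-1.12 ± 0.20), and was not called after quantile normalization or without the E10.5 forebrain library. The receptor component Smo and the co-receptor Gas1 were not called, at 0.10 ± 0.09 and 0.90 ± 0.11, although Gas1 was higher in every forebrain library than in any midbrain library.

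In the BMP and TGF-beta list of 25 genes, Id4 and Bmp4 were higher in forebrain and Fst was lower. Id4, which encodes an inhibitor of differentiation factors, stood at 171 TPM at E10.5 and 196 and 223 TPM at E11.5 in forebrain, against 36.9 and 36.4 TPM at E10.5 and 57.4 and 64.5 TPM at E11.5 in midbrain (1.98 ± 0.07, adjusted p = 6.75e-21). Its relatives on the same list ran the other way: Id2 had 87.8 to 98.0 TPM in forebrain and 147 to 165 TPM in midbrain (-0.71 ± 0.07) and Id3 135 to 172 TPM in forebrain and 183 to 211 TPM in midbrain (-0.42 ± 0.09), neither called. Bmp4 at 1.02 ± 0.16 and the BMP and activin antagonist Fst at -1.02 ± 0.14 lay at the edge of a call, and both lost it in other settings, Bmp4 in 4 of them and Fst in 6. In the retinoic acid list of 17 genes, the synthesizing enzyme Aldh1a3 was higher in forebrain, with 25.0 TPM (E10.5) and 1.52 and 2.20 TPM (E11.5) in forebrain, against 1.59 and 1.79 TPM (E10.5) and 0.36 and 0.16 TPM (E11.5) in midbrain (2.23 ± 0.14, adjusted p = 1.11e-14). Crabp1, a binding protein for retinoic acid, was lower, with 1200.5 TPM (E10.5) and 241 and 225 TPM (E11.5) in forebrain, against 1325 and 1454 TPM (E10.5) and 908 and 886 TPM (E11.5) in midbrain (-1.08 ± 0.15, adjusted p = 3.58e-07). For Aldh1a3 the difference was larger in size at E10.5, where forebrain has 1 library, and for Crabp1 at E11.5. In the additive fit of the 7 libraries alone, where a change between stages counts as spread, Crabp1 was not called, at -1.25 (adjusted p = 0.0835).

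The Notch list of 20 genes had Hes3, Dll3 and Jag1 lower in forebrain and Dlk1 higher. Hes3, a progenitor gene concentrated at the isthmus, stood at 0.24 TPM at E10.5 and 0.23 and 0.17 TPM at E11.5 in forebrain, against 10.5 and 11.1 TPM at E10.5 and 3.31 and 4.84 TPM at E11.5 in midbrain (-2.66 ± 0.19, adjusted p = 1.6e-13). Dlk1, an imprinted Notch-related ligand, stood at 347 TPM at E10.5 and 201 and 216 TPM at E11.5 in forebrain, against 141 and 128 TPM at E10.5 and 107 and 93.1 TPM at E11.5 in midbrain (1.21 ± 0.20, adjusted p = 9.89e-06), highest in the E10.5 library. Dll3, which marks cells leaving the cycle, had 10.2 to 25.5 TPM in forebrain and 32.3 to 46.1 TPM in midbrain (-1.24 ± 0.07), and was not called without the E10.5 forebrain library, at -0.83. The ligand Jag1 at -1.05 ± 0.10 was not called after median-of-ratios scaling or quantile normalization. Hes5, the main Notch target in neural progenitors, was not called, at -0.98 ± 0.14.

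Genes of young neurons were lower in forebrain as a group. Of 24 genes, 13 were lower over both stages (Dcx, Stmn2, Elavl4, Ina, Nefl, Nefm, Mapt, Gap43, Cntn2, Nsg2, Syt4, Snap25 and Gng3) and none was higher, with a median of -1.09 beside -0.03 for all genes. At E10.5 alone 20 of the 24 were lower, and at E11.5 alone 9 were. Without the E10.5 forebrain library Dcx, Elavl4, Nsg2 and Gng3 were not called, at -0.80, -0.96, -0.35 and -0.57. Nefl, the neurofilament light chain, stood at 4.22 TPM at E10.5 and 13.6 and 14.4 TPM at E11.5 in forebrain, against 67.0 and 61.7 TPM at E10.5 and 101 and 103 TPM at E11.5 in midbrain (-3.21 ± 0.12, adjusted p = 1.49e-20). Nefm, its partner, stood at 7.34 TPM at E10.5 and 19.8 and 22.3 TPM at E11.5 in forebrain, against 104 and 94.1 TPM at E10.5 and 102 and 118 TPM at E11.5 in midbrain (-2.96 ± 0.13, adjusted p = 4.42e-19). In both genes all forebrain libraries lay below all midbrain libraries, and forebrain at E11.5 had not reached the midbrain level of E10.5. That was not the rule in the list. Cntn2, an adhesion protein of early axons, stood at 2.36 TPM at E10.5 and 19.5 and 27.4 TPM at E11.5 in forebrain, against 23.2 and 15.6 TPM at E10.5 and 68.3 and 73.7 TPM at E11.5 in midbrain (-2.08 ± 0.15), and forebrain at E11.5 lay near midbrain at E10.5. Syt4, a vesicle protein, did likewise, with 0.78 TPM (E10.5) and 4.94 and 6.0 TPM (E11.5) in forebrain, against 7.82 and 4.23 TPM (E10.5) and 34.0 and 32.5 TPM (E11.5) in midbrain (-2.17 ± 0.13). Tubb3, the neuronal tubulin and the member of highest level, had 241 TPM (E10.5) and 848 and 724 TPM (E11.5) in forebrain, against 697 and 569 TPM (E10.5) and 1053 and 986 TPM (E11.5) in midbrain (-0.88 ± 0.14, adjusted p = 5.94e-06), short of the size required, and Map2 was not called either, at -0.90 ± 0.14.

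**Figure D4:**
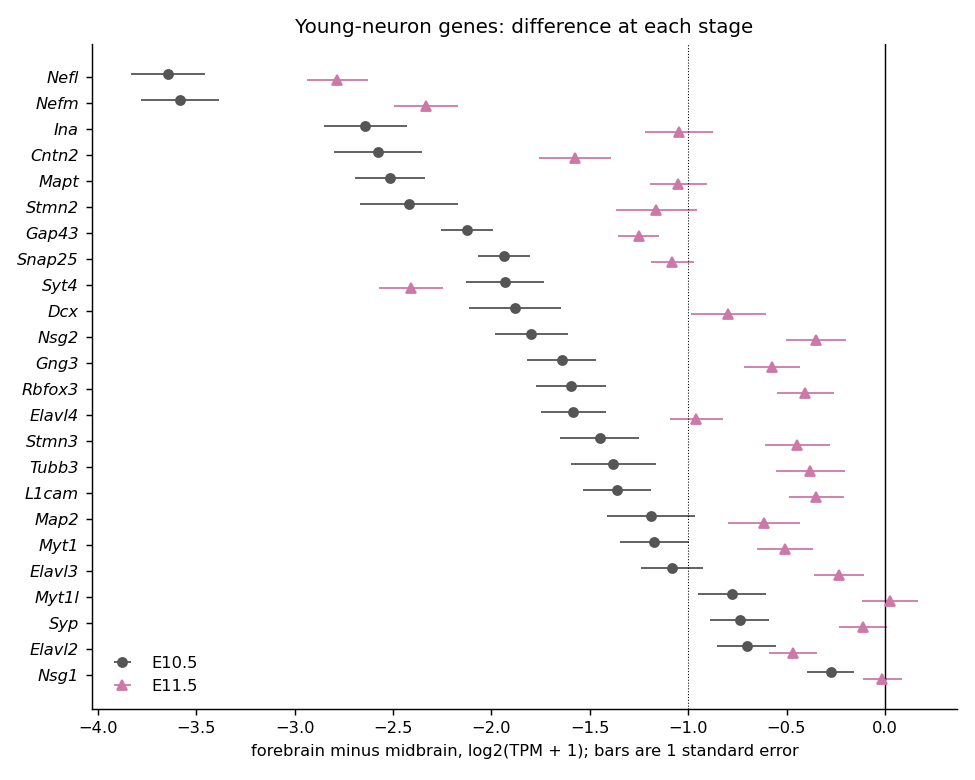
Difference between forebrain and midbrain in 24 young-neuron genes at E10.5 (grey circles) and E11.5 (pink triangles), forebrain minus midbrain on the log2(TPM + 1) scale, with bars of 1 standard error and a dotted line at -1. Nearly all genes lie left of 0 at both stages, Syt4 is the only one further left at E11.5 than at E10.5, and Nefl lies furthest left at E11.5.

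Proneural factors, which push progenitors to become neurons, were lower in forebrain for 4 of 16 genes (Neurod4, Nhlh1, Nhlh2 and Helt) and higher for 1 (Neurod6). Neurod4 ranged over 2.38 to 4.85 TPM in forebrain and 12.4 to 15.4 TPM in midbrain (-1.74 ± 0.12). Nhlh2 ranged over 10.2 to 33.9 TPM in forebrain and 27.3 to 72.5 TPM in midbrain (-1.34 ± 0.14). Neurog2, the proneural gene of the cortex, had 25.2 to 77.5 TPM in forebrain and 27.6 to 68.6 TPM in midbrain and was not called. Among 18 neural progenitor genes, Pax6 and Hmga2 were higher and Fabp7 was lower in forebrain. Hmga2, which keeps young progenitors dividing, stood at 471 TPM at E10.5 and 206 and 281 TPM at E11.5 in forebrain, against 134 and 163 TPM at E10.5 and 59.9 and 68.4 TPM at E11.5 in midbrain (1.78 ± 0.13, adjusted p = 3.22e-13), and its level at E11.5 was below that at E10.5 in both regions. Fabp7, a radial glia protein, stood at 102 TPM (E10.5) and 641 and 584 TPM (E11.5) in forebrain, against 358 and 309 TPM (E10.5) and 988 and 960.0 TPM (E11.5) in midbrain (-1.18 ± 0.14). It was not called without the E10.5 forebrain library, at -0.67. The progenitor filaments Vim and Nes had differences of -0.18 ± 0.09 and -0.53 ± 0.11, not called.

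Cajal-Retzius neurons, the first-born cells of the cortex, were followed with 10 genes, of which Trp73 and Calb2 were higher and Lhx1, Ebf2, Ebf3 and Nhlh2 were lower in forebrain. Calb2, the calcium-binding protein calretinin, stood at 6.33 TPM at E10.5 and 19.4 and 16.9 TPM at E11.5 in forebrain, against 1.39 and 1.39 TPM at E10.5 and 1.60 and 2.18 TPM at E11.5 in midbrain (2.18 ± 0.14, adjusted p = 1.78e-14). Trp73 ranged over 1.84 to 6.34 TPM in forebrain and 0.31 to 0.42 TPM in midbrain (1.73 ± 0.10, adjusted p = 3.55e-16). Ebf3, which other neurons of the tube also make, ranged over 11.2 to 15.2 TPM in forebrain and 40.2 to 71.7 TPM in midbrain (-2.08 ± 0.15). Lhx1 ranged over 1.64 to 9.59 TPM in forebrain and 6.56 to 28.4 TPM in midbrain (-1.78 ± 0.20). Reln, the secreted protein these cells are known for, was not called, with 4.21 to 20.6 TPM in forebrain and 5.51 to 15.8 TPM in midbrain.

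Genes that steer axons and sort cells were called in small numbers, most of them lower in forebrain. Of 28 axon guidance genes, Slit1, Robo3, Ntn1, Dcc and Draxin were lower and Sema5a was higher. Slit1, a repellent of growing axons, stood at 1.44 TPM at E10.5 and 5.53 and 6.19 TPM at E11.5 in forebrain, against 24.3 and 21.4 TPM at E10.5 and 16.3 and 18.4 TPM at E11.5 in midbrain (-2.35 ± 0.11, adjusted p = 4.13e-18). Ntn1, the floor plate attractant netrin, ranged over 11.1 to 17.2 TPM in forebrain and 42.9 to 58.7 TPM in midbrain (-1.81 ± 0.12). Draxin, a repellent, ranged over 6.92 to 13.2 TPM in forebrain and 23.5 to 38.2 TPM in midbrain (-1.60 ± 0.09). Robo3, a receptor of crossing axons, ranged over 6.83 to 26.9 TPM in forebrain and 25.4 to 71.3 TPM in midbrain (-1.75 ± 0.23). Of 22 Eph receptors and ephrins, which map tectal connections later, Epha5, Epha8 and Epha10 were lower and Efnb2 was higher. Epha8 ranged over 0.49 to 0.88 TPM in forebrain and 6.17 to 7.31 TPM in midbrain (-2.15 ± 0.12). Epha10 ranged over 0.84 to 2.67 TPM in forebrain and 5.79 to 16.1 TPM in midbrain (-2.14 ± 0.14). Efnb2 at 1.04 ± 0.12 lost its call without forebrain E11.5 replicate 2 and without midbrain E11.5 replicate 1, and Epha5 at -1.47 ± 0.10 without the E10.5 forebrain library. Of 16 cadherins and protocadherins, Pcdh8 and Cdh8 were lower and Pcdh19 was higher in forebrain. Pcdh8 stood at 1.72 TPM at E10.5 and 6.51 and 6.69 TPM at E11.5 in forebrain, against 30.9 and 30.0 TPM at E10.5 and 25.9 and 28.3 TPM at E11.5 in midbrain (-2.71 ± 0.09, adjusted p = 2.14e-21). Pcdh19, an X-linked protocadherin, stood at 16.4 TPM at E10.5 and 22.5 and 31 TPM at E11.5 in forebrain, against 3.18 and 3.62 TPM at E10.5 and 5.12 and 7.03 TPM at E11.5 in midbrain (1.98 ± 0.12, adjusted p = 1.15e-15). Cdh2, the cadherin that holds the neuroepithelium together, had 144 to 182 TPM in forebrain and 131 to 141 TPM in midbrain and was not called.

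No gene of the cell cycle list (26 tested) or of the DNA methylation list (18 tested of 19) was called by limma in either direction. Over all tested genes 2.81% were called, and at that share lists of this size would hold few calls or none. Dnmt1, the maintenance methyltransferase, had 155 TPM (E10.5) and 127 and 152 TPM (E11.5) in forebrain, against 140.3 and 140.4 TPM (E10.5) and 109 and 116 TPM (E11.5) in midbrain (0.22 ± 0.09, adjusted p = 0.0703). Its partner Uhrf1 had 225 to 262 TPM in forebrain and 204 to 226 TPM in midbrain (0.14 ± 0.12). The de novo enzymes Dnmt3a and Dnmt3b had differences of 0.11 ± 0.10 and 0.13 ± 0.10, and Tet1, which oxidizes methylcytosine, of -0.20 ± 0.14 with 4.30 TPM in forebrain E11.5 replicate 1, the library with lower values of long transcripts, and 8.25 to 10.4 TPM in the other 6. Mbd3 had 0.18 ± 0.09. The medians were 0.00 for the DNA methylation list and 0.15 for the cell cycle list, where the replication clamp Pcna and the mitotic enzyme Top2a had differences of 0.14 ± 0.07 and 0.06 ± 0.10. A difference that misses the threshold is not shown to be absent.

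Over both stages, genes of tissue around the brain were called only higher in forebrain. Among the forebrain and midbrain libraries compared, all of these were highest in the single E10.5 forebrain library. Of 20 mesenchyme, meninges and cranial neural crest genes, 4 were higher, among them Alx1, Alx4 and Prrx1, and none was lower, with a median of 0.00. At E10.5 alone 5 were called higher and 1 lower, and at E11.5 alone 2 higher and 1 lower. Alx1, a factor of frontonasal mesenchyme, stood at 31 TPM at E10.5 and 12.52 and 16.3 TPM at E11.5 in forebrain, against 2.86 and 3.09 TPM at E10.5 and 3.05 and 2.79 TPM at E11.5 in midbrain (2.49 ± 0.11, adjusted p = 2.03e-18). Without the E10.5 library the difference of Alx1 at E11.5 was 1.97 ± 0.15, still called, while Alx4 and Prrx1 were not called, at 0.82 and 0.81. The collagens Col3a1 and Col1a2, the members of highest level, had differences of -0.54 ± 0.22 and -0.29 ± 0.22, and the list summed to 664 to 758 TPM in forebrain and 565 to 865 TPM in midbrain.

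Of 16 surface ectoderm and placode genes, Cldn6, Epcam and Krt18 were higher in forebrain. The list summed to 196 TPM in forebrain at E10.5 and 76.6 to 82.9 TPM at E11.5, against 91.7 to 94.7 TPM in midbrain at E10.5 and 57.8 to 60.5 TPM at E11.5. In hindbrain the same list summed to more than in forebrain, with 253 to 255 TPM at E10.5 and 168 to 188 TPM at E11.5. Epcam, an epithelial adhesion protein, had 16.4 TPM (E10.5) and 7.99 and 7.77 TPM (E11.5) in forebrain, against 4.14 and 4.08 TPM (E10.5) and 2.91 and 3.36 TPM (E11.5) in midbrain (1.44 ± 0.21, adjusted p = 1.47e-06). Cldn6 had 23 TPM (E10.5) and 5.40 and 6.07 TPM (E11.5) in forebrain, against 5.08 and 5.67 TPM (E10.5) and 2.17 and 2.10 TPM (E11.5) in midbrain (1.51 ± 0.19). Krt18 at 1.01 ± 0.19 lost its call in 7 of the other settings. The part of tissue attached to the dissected region in these differences, and in those of the eye genes, was not tested.

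Muscle and cartilage (13 genes), blood (12), endothelium and pericyte (16), microglia (14), liver (10) and sex-linked genes (5) had no called member by limma, beside 2.81% of all tested genes. The blood genes summed to 13901 to 20603 TPM in forebrain and 14494 to 19929 TPM in midbrain, the endothelial genes to 191 to 216 TPM and 229 to 246 TPM, and the microglial genes to 73.0 to 93.0 TPM and 91.4 to 141 TPM. In the choroid plexus and roof plate list of 14 genes, Rspo1, Rspo2, Rspo3 and Clic6 were higher and Otx2 and Lmx1a lower in forebrain. Clic6, a chloride channel protein of choroid plexus, ranged over 4.60 to 5.97 TPM in forebrain and 0.81 to 2.02 TPM in midbrain (1.39 ± 0.25), and Ttr is described next.

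The 2 stages were then set against each other, by testing whether the region difference at E11.5 differed from that at E10.5. This interaction was called for 135 genes, 0.724% of those tested, 89 with a larger value at E11.5 and 46 with a smaller one. Among them were 27 of the 152 genes higher in forebrain and 44 of the 372 lower genes. It rests on the 1 forebrain library of E10.5, and a fit of the 11 brain libraries of these stages alone called 48 genes, 44 of them among the 135.

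Neurod6, a factor of cortical projection neurons, was near 0 in forebrain at E10.5 and not at E11.5, with 0.04 TPM at E10.5 and 7.27 and 6.43 TPM at E11.5 in forebrain, against 0.04 and 0.06 TPM at E10.5 and 0.35 and 0.50 TPM at E11.5 in midbrain. Its difference was -0.01 ± 0.41 at E10.5 and 2.46 ± 0.34 at E11.5, a change of 2.48 ± 0.53 (adjusted p = 0.00645). The difference over both stages was not called in the additive fit of the 7 libraries alone, at 1.47 (adjusted p = 0.128). The change between stages counts as spread in that fit. Ttr, which encodes the thyroxine carrier of choroid plexus and liver, had 0.63 TPM (E10.5) and 17.6 and 13.2 TPM (E11.5) in forebrain, against 2.04 and 2.14 TPM (E10.5) and 1.81 and 1.17 TPM (E11.5) in midbrain and a change of 3.65 ± 0.80 (adjusted p = 0.00829). Ttr was higher in both forebrain libraries of E11.5 than in any other of the 7 libraries. The part of the liver transcripts noted above in this change was not tested. The neuropeptide gene Sst was lower in forebrain at both stages but by less at E11.5, with 1.34 TPM (E10.5) and 6.38 and 7.08 TPM (E11.5) in forebrain, against 37.7 and 48.2 TPM (E10.5) and 26.1 and 20.02 TPM (E11.5) in midbrain and a change of 2.59 ± 0.26 (adjusted p = 3.77e-08).

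In the other direction, Gata2 and Gata3, selector genes of midbrain GABAergic neurons, were called only at the later stage, and the change was called as well. Gata2 had 9.39 TPM (E10.5) and 1.76 and 1.94 TPM (E11.5) in forebrain, against 11.2 and 9.67 TPM (E10.5) and 14.1 and 14.6 TPM (E11.5) in midbrain, a difference of -0.13 ± 0.19 at E10.5 and -2.43 ± 0.15 at E11.5 (change -2.30 ± 0.24, adjusted p = 7.04e-08). Gata3 had 4.33 TPM (E10.5) and 1.05 and 1.05 TPM (E11.5) in forebrain, against 5.64 and 4.18 TPM (E10.5) and 9.26 and 10.6 TPM (E11.5) in midbrain (change -2.27 ± 0.41, adjusted p = 0.000992). In the additive fit of the 7 libraries alone, the difference over both stages was not called for Gata2, at -1.51 (adjusted p = 0.103), or Gata3, at -1.502 (adjusted p = 0.105). Their change between stages counts as spread in that fit. The E10.5 forebrain library was within the E10.5 midbrain range of Gata3, and both E11.5 forebrain libraries lay well below it. Trpm1, a channel of pigment cells and retina, had 31.6 TPM (E10.5) and 0.90 and 1.23 TPM (E11.5) in forebrain, against 4.50 and 4.25 TPM (E10.5) and 0.46 and 0.63 TPM (E11.5) in midbrain (change -2.19 ± 0.25), and the chemokine Cxcl13 6.50 TPM (E10.5) and 0.35 and 0.27 TPM (E11.5) in forebrain, against 0.03 and 0.04 TPM (E10.5) and 0.04 and 0.06 TPM (E11.5) in midbrain (change -2.54 ± 0.22). Both genes, like the eye and ectoderm lists above, were highest in the single E10.5 forebrain library.

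A pair of short RNA genes was listed at 0 in some libraries and not in others. Mir8114 was listed at 0 in all 3 forebrain libraries, and in midbrain at 447 and 398 TPM at E10.5 and at 0 at E11.5 (change 8.72 ± 2.13, adjusted p = 0.0219). Snord67 was listed at 0 in forebrain, and in midbrain at 8.56 and 9.25 TPM at E10.5 and at 0 at E11.5 (change 3.31 ± 0.81). In hindbrain, Mir8114 was listed at 320 and 415 TPM at E10.5 and at 0 at E11.5. The libraries were made with an mRNA kit.

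**Figure D5:**
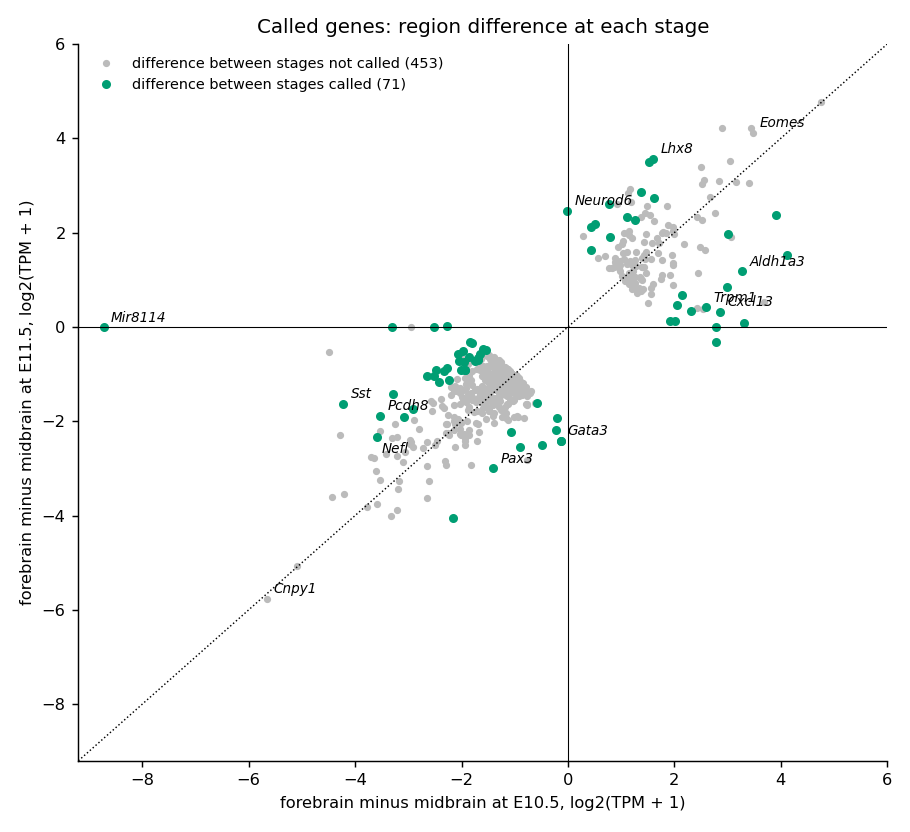
Difference between forebrain and midbrain at E10.5 (x axis) and at E11.5 (y axis) for the 524 called genes, on the log2(TPM + 1) scale, with a dotted line where both are equal. Green points are the 71 genes whose difference changed between the stages; Cnpy1 lies near the lower part of the dotted line, and Neurod6, Gata3 and Mir8114 lie on or near an axis.

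The early difference was also compared with that at E13.5 and E14.5, from 8 other libraries, 4 in each region. The change was called for 601 genes, 3.22% of those tested. The early difference was the larger in sign for 260 (1.39%) and the smaller for 341 (1.83%). At the later stages 924 genes, 4.95%, differed between the regions, 399 (2.14% of all tested genes) higher and 525 (2.81%) lower in forebrain. Of the 152 genes higher in forebrain early, 65 were also called higher at the later stages and 2 were called lower. Of the 372 lower genes, 194 were also called lower and 2 higher. Eomes had a later difference of 4.20 ± 0.21, En2 of -4.80 ± 0.19 and Cnpy1 of -4.77 ± 0.23, and for none of these 3 was a change called.

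Other early differences were not called at the later stages. Emx2 had a later difference of 0.44 ± 0.26, against 2.59 ± 0.29 early, and the change was called (adjusted p = 4.98e-05); its later means were 59.1 TPM in forebrain and 42.9 TPM in midbrain. Id4 had 0.10 ± 0.06 later (adjusted p of the change = 4.24e-16), with means of 175 TPM in forebrain and 164 TPM in midbrain. The peptide gene Trh, lower in forebrain early, had a later difference of 0.49 ± 0.26 (adjusted p of the change = 1.68e-09), and Lrtm1, a membrane protein gene that was lower, at -2.82 ± 0.10 early, had -0.07 ± 0.09 (adjusted p of the change = 3.45e-17). Of the 24 young-neuron genes, 4 were called lower in forebrain at the later stages, beside 2.81% of all tested genes, and none higher. Their median was -0.52 beside -0.07 for all genes. The change was called for 6 of the 24, each with the early difference the more negative, beside 1.83% of all tested genes. Nefl had -1.97 ± 0.11 later, smaller in size than early but still called, and Cntn2 0.03 ± 0.13, not called (adjusted p of the change = 3.33e-07 and 2.37e-10). For Tubb3 and Map2 the change was not called (adjusted p = 0.44 and 0.0609).

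Other differences were larger at the later stages. Tfap2b, a factor of tectal neurons, neural crest and skin, had 39.9 TPM (E10.5) and 12.3 and 15.9 TPM (E11.5) in forebrain, against 31.8 and 28.7 TPM (E10.5) and 26.3 and 28.1 TPM (E11.5) in midbrain early, not called, and later means of 2.43 TPM in forebrain and 181 TPM in midbrain, a change of 5.52 ± 0.36 (adjusted p = 1.52e-13). Its relative Tfap2a had an early difference of 0.66 ± 0.11, called higher in forebrain at E10.5 alone (1.03 ± 0.17), and a later one of -2.90 ± 0.10. Pou4f2, a factor of tectal and retinal neurons, had an early difference of -0.49 ± 0.13 (adjusted p = 0.00356), below the size required, with 0.02 to 0.03 TPM in forebrain and 0.20 to 0.77 TPM in midbrain, and later means of 0.04 TPM in forebrain and 19.1 TPM in midbrain. In the forebrain, Ppp1r1b, the striatal phosphoprotein DARPP-32, had early values of 0.09 to 0.52 TPM in forebrain and 0.71 to 1.0 TPM in midbrain and later means of 16.8 TPM in forebrain and 0.96 TPM in midbrain, and Tiam2, a Rac activator, had 1.70 to 2.15 TPM in forebrain and 0.91 to 1.16 TPM in midbrain early and means of 33.7 TPM in forebrain and 1.79 TPM in midbrain later. Crym, a thyroid hormone binding protein, was higher in forebrain early (1.32 ± 0.20) and lower in forebrain later (-1.44 ± 0.18, adjusted p of the change = 4.7e-10). At E11.5 alone its difference was 0.33, not called. Forebrain has 1 library at E10.5, so an effect of that library and of stage cannot be told apart.

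Of the called genes, 26 of the 152 higher and 36 of the 372 lower in forebrain have a noncoding or other annotation in place of protein-coding. The genes named in this paragraph were chosen after their values were seen. Among the 26 higher genes, the 3 of highest level in forebrain were Gm3764, C130071C03Rik and Mir9-3hg, each of which spans a copy of the Mir9 hairpin. Gm3764 spans Mir9-1 on chromosome 3. Gm3764 stood at 201 TPM at E10.5 and 370.0 and 376 TPM at E11.5 in forebrain, against 11.2 and 13.6 TPM at E10.5 and 66.1 and 76.1 TPM at E11.5 in midbrain (3.15 ± 0.21, adjusted p = 2.16e-14). Mir9-3 lies in Mir9-3hg on chromosome 7 and Mir9-2 in C130071C03Rik on chromosome 13, all on the strand of the gene. Mir9-3hg stood at 74.1 TPM at E10.5 and 117 and 121 TPM at E11.5 in forebrain, against 21.1 and 15.6 TPM at E10.5 and 48.3 and 46.9 TPM at E11.5 in midbrain (1.64 ± 0.12, adjusted p = 5.9e-13). C130071C03Rik stood at 90.5 TPM at E10.5 and 156 and 182 TPM at E11.5 in forebrain, against 38.9 and 32.9 TPM at E10.5 and 98.2 and 97.9 TPM at E11.5 in midbrain (1.05 ± 0.10, adjusted p = 5.74e-10). Within each stage the forebrain values of all 3 lay above those of midbrain, and within each region the E11.5 values lay above those of E10.5. C130071C03Rik was the weakest. Its E10.5 forebrain library lay below the midbrain libraries of E11.5, its difference was 0.78 without that library, and it was not called then or without forebrain E11.5 replicate 2 or midbrain E10.5 replicate 2, at 0.99 in both cases. The mature RNAs of the 3 hairpins are the same in RefSeq (GRCm38.p6). They are shown because the 3 transcripts span them, with bases 2 to 8, the seed that pairs with targets, in capitals. The 5p arm lies on the plus strand at chr3:88215613-88215635, chr7:79505279-79505301 and chr13:83738821-83738843. miR-9 is a microRNA of neural progenitors. The mature RNAs themselves were not measured.
mmu-miR-9-5p: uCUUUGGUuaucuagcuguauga
mmu-miR-9-3p: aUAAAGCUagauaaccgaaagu

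The host of another neuronal microRNA, Mir124a-1hg, ran the other way, with 6.67 TPM (E10.5) and 36.1 and 39.8 TPM (E11.5) in forebrain, against 27.1 and 19.9 TPM (E10.5) and 69.3 and 70.3 TPM (E11.5) in midbrain (-1.26 ± 0.13, adjusted p = 1.09e-09), and its forebrain level at E11.5 lay above the midbrain level of E10.5. It was not called without the E10.5 forebrain library, at -0.86. Crnde, a noncoding gene beside Irx5, ranged over 8.32 to 11.9 TPM in forebrain and 27.8 to 59.9 TPM in midbrain (-1.94 ± 0.13), and E330013P04Rik on chromosome 19 over 18.9 to 24.2 TPM in forebrain and 0.78 to 2.24 TPM in midbrain (3.22 ± 0.14).

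Some called genes lay beside each other in the genome. Within 100 kb of each other there were 73 pairs of called genes, of which 63 changed in the same direction, 23 higher and 40 lower in forebrain, and 10 in opposite directions. Of the 152 genes higher in forebrain, 31 (20.4%) had a neighbour called higher within that distance, beside 2.23% of all tested genes with a position. Of 369 lower genes with a position, 70 (19.0%) had a neighbour called lower, beside 6.07% of all. These are descriptions, and overlapping genes are among them. The pairs named here were chosen after their values were seen. En2 and Cnpy1 lie 28653 bases apart on chromosome 5. Lhx8 lies 162 bases from the noncoding gene AI606473 on chromosome 3, and Fzd10 lies 151 bases from 5930412G12Rik on chromosome 5. Dlx1, Dlx2 and the antisense gene Dlx1as form one cluster on chromosome 2, and Dlx5, Dlx6 and Dlx6os1 another on chromosome 6. On the midbrain side, Nefl and Nefm overlap on chromosome 14 in this annotation, and Wnt1 lies 9940 bases from Ddn on chromosome 15. In 16 of the 73 pairs the genes overlap, among them Six3 with Six3os1, Emx2 with Emx2os, Otx2 with Otx2os1 and Irx3 with Irx3os. The kit marked strand, but whether the authors' quantification used it is not given in the sources used here, so reads of such overlapping pairs may not be told apart.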

How the data were processed

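RNA from mouse fetal forebrain, midbrain, hindbrain and liver was sequenced from libraries made with a stranded mRNA kit, per the labels' protocols. The authors deposited 1 table of TPM values per gene and library, which was the only measurement used here. Per the submitters' processing notes, STAR 2.4.0k and RSEM 1.2.23 were used with the mm10 build; the annotation is not given in the sources used here. Of 43346 identifiers, 42462 matched a symbol in GENCODE M21, and 11661 were listed at 0 in every library. TPM keeps no counts, so depth is unknown and no count test was possible.

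The filter kept the 18655 genes that reached 1 TPM in 2 or more of the 61 libraries. Log2(TPM + 1) was fitted with limma 3.58.1 in R 4.3.3, with 1 mean per tissue and stage over all 61 libraries (30 residual degrees of freedom), trended moderation and Benjamini-Hochberg adjustment over all genes of a contrast. All adjusted p-values are two-sided. For 4 libraries at E16.5 and P0 the column header and the sample record disagree on the stage, and the header was followed; they enter only the estimate of spread. No replicates of a group held identical values. The fit was tested on simulated data.

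The comparison, the 33 gene lists and the rule for named genes were chosen with earlier results of these data known. Lists are described by counts of called members, and some also by their median difference. The share of calls and the median over all genes are given with the totals. The rule named, per list, the most changed of the called genes (up to 4) and the most abundant of the uncalled ones (up to 2); the 12 called genes highest and the 12 lowest in forebrain, among those that average 5 TPM or more in a region, do not overlap and are not predicted genes; and 5 genes in each direction for each change between stages; a fixed set of patterning and methylation genes was always considered. Some genes that the rule picks are not reported here. Other names were chosen after their values were seen. The 18 other settings were another pseudocount (0.1), filter, scaling, model, moderation, choice of libraries, a replicate block, and leaving out each library in turn. Where the only E10.5 forebrain library was left out, the E11.5 difference stood in for that over both stages.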

Additional observations from a re-analysis of the deposited data

Results flagged for a closer look

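The region difference changed between E10.5 and E11.5, by the interaction test in limma, for these genes, among those of largest change in each direction, all on the log2(TPM + 1) scale and as the E11.5 difference minus the E10.5 difference. The change was 8.72 for Mir8114, 3.65 for Ttr, 3.31 for Snord67, 2.59 for Sst and 2.48 for Neurod6. It was -2.54 for Cxcl13, -2.30 for Gata2, -2.27 for Gata3 and -2.19 for Trpm1. All 9 rest on the single forebrain library of E10.5.

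The region difference at E10.5 and E11.5 also differed from that at E13.5 and E14.5, as the early difference minus the later one. The change was 5.52 for Tfap2b, 3.73 for Pou4f2, 3.55 for Tfap2a, 3.08 for Pax7 and 2.76 for Crym. It was -5.96 for Mir8114, -3.78 for Trh, -3.68 for Ppp1r1b, -3.15 for Tiam2 and -2.75 for Lrtm1.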

How the results depend on the processing

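With a pseudocount of 0.1 in place of 1, the calls numbered 1064 over both stages, 978 at E11.5, 1182 at E10.5 and 1205 for the change to E13.5 and E14.5, against 524, 504, 660 and 601. In a fit of the brain libraries of E10.5 and E11.5 alone, the change between these stages was called for 48 genes, against 135. The other settings kept these 5 counts within 1.5 times. Leaving out 1 library at a time gave 501 to 571 calls over both stages, 573 to 744 at E10.5, 477 to 640 at E11.5, 101 to 182 for the change between them and 598 to 630 for the later change. Of the calls, 29.0% were higher in forebrain, and 36.6% after quantile normalization. An added setting, chosen after seeing the data, left out the E12.5 and E15.5 libraries and those of conflicting labels, and called 525 genes over both stages.

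The labels do not say that equal replicate numbers pair libraries. Forebrain and midbrain libraries of 1 number correlated in their deviations at r = 0.16 at E11.5, 0.02 at E12.5, 0.10 at E13.5, 0.09 at E14.5 and -0.01 at E15.5, so the numbers were not taken to pair them. The fit with a replicate block called 511 genes.

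Of the named genes 158 were called; 116 kept the call in all 18 other settings and 42 lost it in at least 1. None of the called ones changed direction. Leaving out the E10.5 forebrain library leaves no difference at E10.5. That setting therefore gives the difference at E11.5 alone, with the E10.5 midbrain libraries out of it too. Without the E10.5 forebrain library the call was lost for Alx4 (0.82), Bmp4 (0.97), C130071C03Rik (0.78), Crym (0.33), Cxcl13 (0.32), Dcc (-0.87), Dcx (-0.80), Ddn (-0.97), Dkk2 (-0.86), Dll3 (-0.83), Elavl4 (-0.96), Epha5 (-0.92), Fabp7 (-0.67), Fst (-0.74), Gng3 (-0.57), Gsx1 (-0.92), Krt18 (0.72), Mir124a-1hg (-0.86), Mir8114 (0), Nhlh1 (-0.48), Nkx2-2 (-0.78), Nsg2 (-0.35), Phox2a (-0.63), Prrx1 (0.81), Six3 (0.89), Six6 (0.12), Snord67 (0), Tbx2 (0.85) and Trpm1 (0.42). Without forebrain E11.5 replicate 1 it was lost for Dcc (-0.72), Fst (-0.95), Jag1 (-0.98), Krt18 (0.98) and Nhlh1 (-0.99). Without forebrain E11.5 replicate 2 it was lost for C130071C03Rik (0.99), Efnb2 (0.94), Prrx1 (0.88) and Sema5a (0.86). Without midbrain E10.5 replicate 1 it was lost for Dcc (-0.92), Gsx1 (-0.98), Krt18 (0.96), Nhlh1 (-0.97) and Nsg2 (-0.97). Without midbrain E10.5 replicate 2 it was lost for C130071C03Rik (0.99) and Prrx1 (0.99). Without midbrain E11.5 replicate 1 it was lost for Bmp4 (0.98), Efnb2 (0.99), Nhlh1 (-0.99) and Prrx1 (0.999). Without midbrain E11.5 replicate 2 it was lost for Dcc (-0.99) and Krt18 (0.99). In a fit of the 7 libraries alone it was lost for AI606473 (1.51), C130071C03Rik (0.99), Crabp1 (-1.25), Crym (1.12), Cxcl13 (1.33), Dcc (-0.98), Dcx (-1.23), Fst (-0.97), Gata2 (-1.51), Gata3 (-1.502), Gng3 (-1.001), Krt18 (0.96), Lhx6 (1.44), Mir8114 (-3.49), Neurod6 (1.47), Nhlh1 (-0.91), Nsg2 (-0.93), Pax7 (-1.39), Prrx1 (0.97), Six6 (0.88), Snord67 (-1.32), Sox14 (-1.69), Tbx2 (1.71) and Trpm1 (1.29). With no regard to stage it was lost for Alx4 (0.87), Bmp4 (0.92), Cdh8 (-0.95), Dcc (-0.82), Dcx (-0.91), Dkk2 (-0.94), Fabp7 (-0.75), Fst (-0.86), Gng3 (-0.86), Gsx1 (-0.96), Krt18 (0.72), Mir124a-1hg (-0.87), Nhlh1 (-0.75), Nsg2 (-0.58), Prrx1 (0.93), Six6 (0.68) and Trpm1 (0.84). After median-of-ratios scaling it was lost for Dcc (-0.95), Fst (-0.96), Gsx1 (-0.99), Jag1 (-0.99) and Nhlh1 (-0.95). After quantile normalization it was lost for Cdh8 (-0.96), Dcc (-0.88), Fst (-0.84), Gsx1 (-0.83), Jag1 (-0.93), Lmx1a (-0.96), Nhlh1 (-0.89), Nkx2-2 (-0.91) and Pax7 (-0.98). With the replicate block it was lost for Bmp4 (0.99), Dcc (-0.93), Gng3 (-0.997), Krt18 (0.98), Nhlh1 (-0.95) and Nsg2 (-0.95). The fit of the 7 libraries alone was additive in region and stage, so a change between stages counted as spread in it. The causes were not tested.

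The genes that changed sign were uncalled. With no regard to stage the difference was 0.0093 for Meis2, 0.15 for Neurog2 and -0.057 for Otx1. In a fit of the 7 libraries alone the difference was 0.014 for Meis2 and 0.014 for Zic1. After median-of-ratios scaling the difference was 0.0024 for Eif2s3y and 0.018 for Zic1. With the replicate block the difference was 0.023 for Neurog2 and -0.11 for Otx1. Leaving out 1 library at a time, the difference ran over -0.044 to 1.57 for Alb, -0.052 to 0.19 for Dnmt3b, -0.42 to 0.12 for Eif2s3y, -0.026 to 0.84 for Isl1, -0.18 to 0.40 for Meis2, -0.24 to 0.16 for Neurog2, -0.047 to 0.13 for Otx1, -0.085 to 1.09 for Pmel, -0.028 to 0.38 for Reln, -0.48 to 0.072 for Tet1 and -0.090 to 0.23 for Zic1. No value could be had for the changes between stages in the additive fit of the 7 libraries, for single stages or their change with no regard to stage, for the later change without the later libraries, or for E10.5 and both changes without its only forebrain library. TPM values hide the depth, so the precision of low values is unknown.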
